A study of Mus musculus with 6 samples.

Results

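Progression through the cell division cycle is driven by cyclins and the kinases they activate, and is restrained by kinase inhibitors and the Rb family. The expression of 52 genes of that machinery was examined in corneal keratocytes, the mesenchymal cells that lay down and maintain the collagen of the corneal stroma. The genes were taken by symbol from a fixed list of cyclins, cyclin-dependent kinases (CDKs) and their inhibitors, Rb and E2F family members, Myc factors, replication and nucleotide synthesis enzymes, and mitotic genes. Of the 52 genes, 51 were among the 17606 genes of the expression table, and 49 of these had enough counts to be tested in a fit over 13888 genes. Cdkn2b and Bub1 had too few counts, and Cdkn2a was not analysed here.

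The keratocytes were sorted by flow cytometry 1 month after 3 doses of tamoxifen, given to mice aged 10 weeks, and 3 control libraries were compared with 3 Ptch1-ablated libraries. In the ablated group the genotype was Prrx1-CreERT;Ptch1 f/f. Here tamoxifen activates a Cre recombinase knocked into Prrx1, a gene of stromal cells, which is to remove floxed Ptch1, the receptor that keeps Hedgehog signaling off. The control group carried the label ctrl and received the same tamoxifen. Whether these controls carried Cre or floxed alleles was not given in the sources used here. Recombination by Prrx1-CreERT is not limited to keratocytes, since corneal endothelial cells and other ocular mesenchyme also express it. The question was how switching on the Hedgehog pathway alters the transcriptome of adult keratocytes, and for the genes described here, whether the transcripts of cell division moved with it.

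In a resting cell D-type cyclins are kept low or held inactive by inhibitors such as p21 and p27, and unphosphorylated Rb proteins block the E2F factors. Mitogens raise D-type cyclins and Myc, the cyclin-CDK complexes phosphorylate the Rb proteins, and E2F factors then turn on cyclin E, cyclin A and the genes for DNA replication. Mitotic genes follow in G2, largely under CCAAT boxes and the CHR element of their promoters. It is through the CHR element that the DREAM and B-MYB-FOXM1 complexes act. Adult keratocytes are known as largely quiescent cells that enter the cycle after injury, and Hedgehog signaling is known to raise D-type cyclins and Mycn in several other tissues.

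The labels were checked first. Kera, Lum and Dcn, which encode the keratan sulfate and dermatan sulfate proteoglycans of the stroma, were abundant in every library, with at least 88567 counts each (read counts as estimated by RSEM, rounded). The targeted gene, Ptch1, held 172, 104 and 369 counts in the control libraries (replicates 1 to 3, the order used throughout) against 4348, 5194 and 6230 in the ablated libraries. Gene totals include exons outside the deleted part and check nothing about the deletion. For Gli1, a transcriptional target of the pathway, the controls held 1, 20 and 36 counts against 3022, 3042 and 3098. Totals were 20258414 to 24788039 counts per library, and 3 counts, which a library showing 0 could still hold, equalled 0.121 to 0.158 counts per 1000000 counts (CPM, with totals scaled by TMM for library composition). This limit covers counting error only. Control replicate 1 and ablated replicate 2 stood apart, holding the highest CPM of 21.7% and 22.1% of the tested genes against 12.9% to 14.7% for the other libraries, so counts that lead the text are also given without these libraries.

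Promoter sequences are shown for Ccnb1 and Top2a, as mitotic genes with CCAAT letters, in Top2a beside CHR letters, and for Tk1 and Cdkn1a, since these with Ccnb1 are among the members called. The windows hold the 250 bases before the annotated transcription start, 5′ to 3′ on the gene's strand, from RefSeq on GRCm38.p6. For 40 of the 51 members at least 1 window was used. This build is not the mm9 build named in the submitters' processing notes, and the windows were joined to the counts by gene symbol only. Capitals mark matches on either strand to CCAAT, to the CHR letters TTTGAA or, in Cdkn1a, to the p53 decamer. No window was used for Myc, Ccnd1, Ccnd2, Ccna2, Rb1, Tpx2, Kif20a, Aurkb, Ccne2, E2f4 and Mcm4. The search of members left out 1 chromosome, which the shares over tested genes and all windows kept.
Ccnb1, chr13:100786487-100786736, minus strand: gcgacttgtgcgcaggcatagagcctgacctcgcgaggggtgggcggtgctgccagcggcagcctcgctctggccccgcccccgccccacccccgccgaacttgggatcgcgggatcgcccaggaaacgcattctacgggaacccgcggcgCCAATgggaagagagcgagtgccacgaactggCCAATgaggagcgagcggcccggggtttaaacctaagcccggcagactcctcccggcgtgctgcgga
Top2a, chr11:99024190-99024439, minus strand: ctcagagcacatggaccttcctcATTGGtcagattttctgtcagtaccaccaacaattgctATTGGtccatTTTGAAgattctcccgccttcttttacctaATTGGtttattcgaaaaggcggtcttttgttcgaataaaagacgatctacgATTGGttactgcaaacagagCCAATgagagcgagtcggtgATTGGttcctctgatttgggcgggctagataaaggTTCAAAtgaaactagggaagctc
Tk1, chr11:117826015-117826264, minus strand: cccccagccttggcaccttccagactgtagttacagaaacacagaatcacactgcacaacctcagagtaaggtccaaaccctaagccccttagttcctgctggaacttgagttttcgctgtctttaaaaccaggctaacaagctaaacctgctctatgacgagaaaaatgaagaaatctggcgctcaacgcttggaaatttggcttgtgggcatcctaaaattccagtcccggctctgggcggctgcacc
Cdkn1a, chr17:29090729-29090978, plus strand: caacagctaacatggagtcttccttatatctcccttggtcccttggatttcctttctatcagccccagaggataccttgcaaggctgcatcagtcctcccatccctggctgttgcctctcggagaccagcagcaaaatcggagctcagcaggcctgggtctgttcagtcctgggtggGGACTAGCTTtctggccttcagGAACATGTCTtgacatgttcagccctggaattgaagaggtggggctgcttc

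In Ccnb1 the CCAAT letters lay 99 and 67 bases before the start. Top2a carried 6 CCAAT matches, at 227, 189, 149, 98, 78 and 58 bases, and CHR letters at 179 and 23 bases before its start. The upstream start of Cdkn1a had p53 decamers at 73 and 51 bases, and a second start at chr17:29093519-29093768 had none of the motifs searched. Tk1 had none of them in this window. Among the 40 members with a window, 26 (65%) held CCAAT, as did 13 of the 15 mitotic and marker genes (86.7%), against 40.3% of 10992 tested genes and 33.8% of all 32851 windows. The CHR letters occurred in 12 members (30%) and in 6 of the 15 mitotic genes (40%), against 13.2% of tested genes and 16% of windows. The E2F letters TTTGGCGC or TTTCCCGC were present in 6 members, namely Mcm5, Mcm6, Mcm7, Cdk2, Mycn and E2f3 (15%), and in none of the 15 mitotic genes, against 2.74% of tested genes and 1.3% of windows. The p53 decamer was found in 4 members (10%, Cdkn1a, Bub1b, Birc5 and Tyms), against 7.29% of tested genes and 7.13% of windows. Neither the GLI letters TGGGTGGTC (0.227% of tested genes and 0.225% of windows) nor the AP-1 letters TGACTCA (4.12% and 4.46%) matched a member. These are letter matches, not sites shown to be bound.

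Levels were compared between genes in TPM, transcripts relative to a common total and scaled for length. The median member had 3.22 TPM over the 6 libraries against 15.5 TPM for all tested genes. Cdkn1a (340.5 TPM), Ccnd3 (292 TPM), Cdk4 (207 TPM), Ccnd2 (180 TPM) and Pcna (66.4 TPM), which encodes the sliding clamp of DNA replication, were the highest. At the other end, 9 members had a mean under 1 TPM. All 18 mitotic and proliferation marker genes lay between 0.365 and 7.75 TPM, 17 of them under 5 TPM. The most abundant regulators of G1 thus lay well above the median gene, and the transcripts of mitosis lay below it. For 17 members every library had under 100 counts. The median coefficient of variation of CPM for the mitotic and marker genes was 84.7% in controls and 65.3% in ablated libraries, against 23.1% and 21.5% for all tested genes. It was 30.2% and 28.7% for the replication and nucleotide synthesis genes and 24.8% and 29.4% for the regulators.

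**Figure D1:**
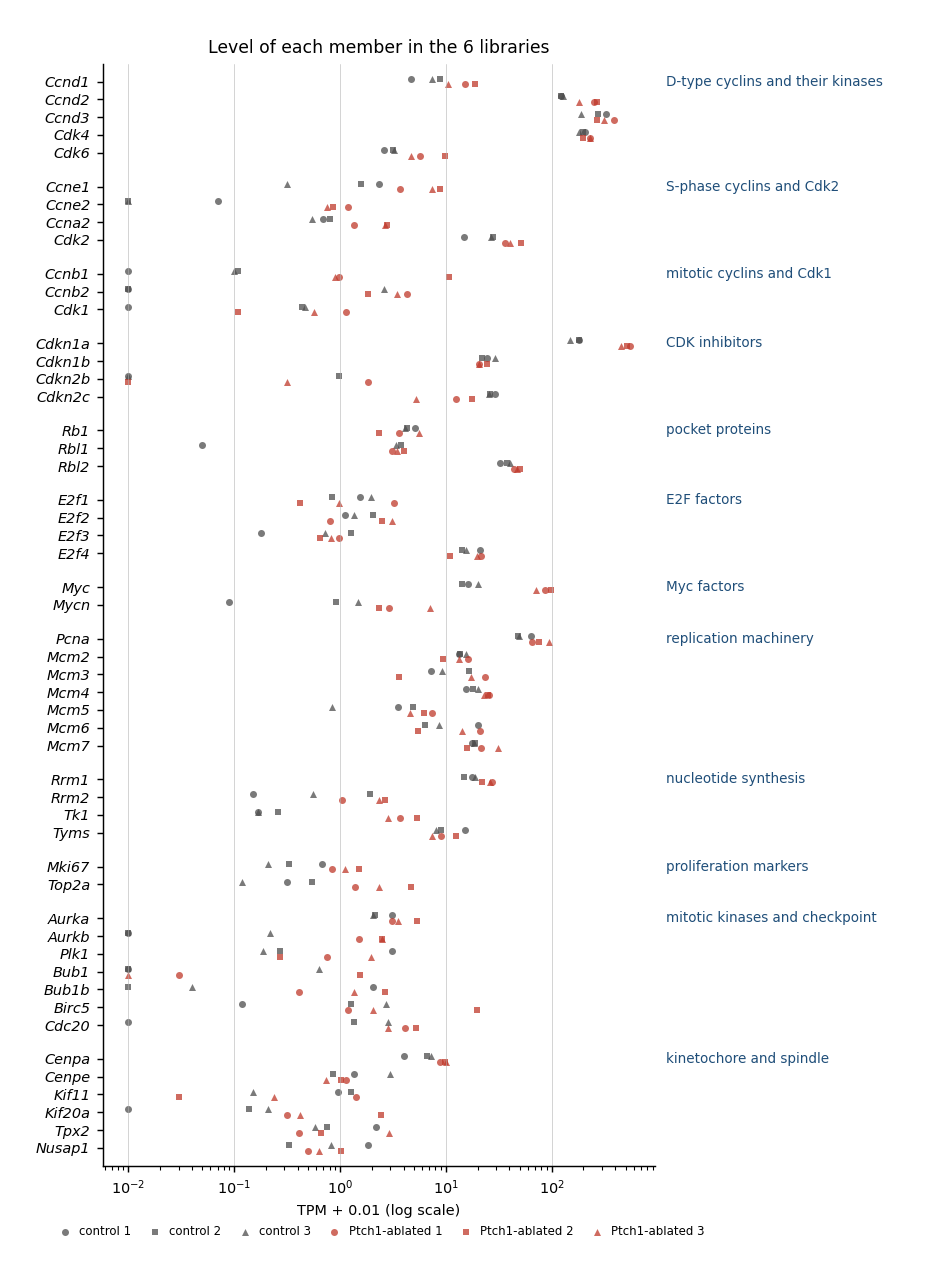
Level of each of the 51 genes in the 6 libraries, in TPM plus 0.01 on a log scale, with a symbol per replicate and genes ordered by role. Cdkn1a, Ccnd3, Cdk4 and Ccnd2 lie at 100 TPM or more on average, the mitotic genes at 0.365 to 7.75 TPM, and points at the left edge are libraries with 0 counts.

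Groups were compared by edgeR's quasi-likelihood test with Benjamini-Hochberg adjustment over all genes. Of the 49 genes tested, 4 were called, that is, they had an adjusted p no higher than 0.05 with a fold change of 2 or more, where 5.49% of all tested genes were called. All 4 were higher in Ptch1-ablated keratocytes, namely Cdkn1a, Myc, Ccnb1 and Tk1, against 3.36% of all genes called higher. Ccnb1 and Tk1 had at most 3 counts in every control and were tested only because of their counts in the ablated libraries. A call as lower was therefore not open to them. None was called lower by edgeR, against 2.13% of all genes, while DESeq2 called Cdkn2c lower. With no fold minimum 5 members passed, Ccnd2 being the added one, where 8.48% of all genes passed, 4.68% as higher and 3.8% as lower. At an unadjusted p under 0.05, 12 members were higher (24.5%, against 10.8% of all genes) and 1 was lower (against 9.72% of all genes). The fitted change was above 0 for 37 members (75.5%, against 50.4% of all genes), and the median log2 fold change was 0.40 against 0.0046 over all genes. The groups did not overlap with the ablated libraries higher for 17 members (34.7%, against 14.1% of all genes), and with them lower for 2 (against 13.3%). Ccnb1, Tk1, Ccne2, Aurkb and Kif20a, all tested only because of their ablated counts, are among the members above 0 and those separated as higher. Without control replicate 1 and ablated replicate 2 the calls were Cdkn1a and Myc. These were also the 2 calls without control replicate 1, 2 or 3 or without ablated replicate 2, while DESeq2 called 8 members.

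**Figure D2:**
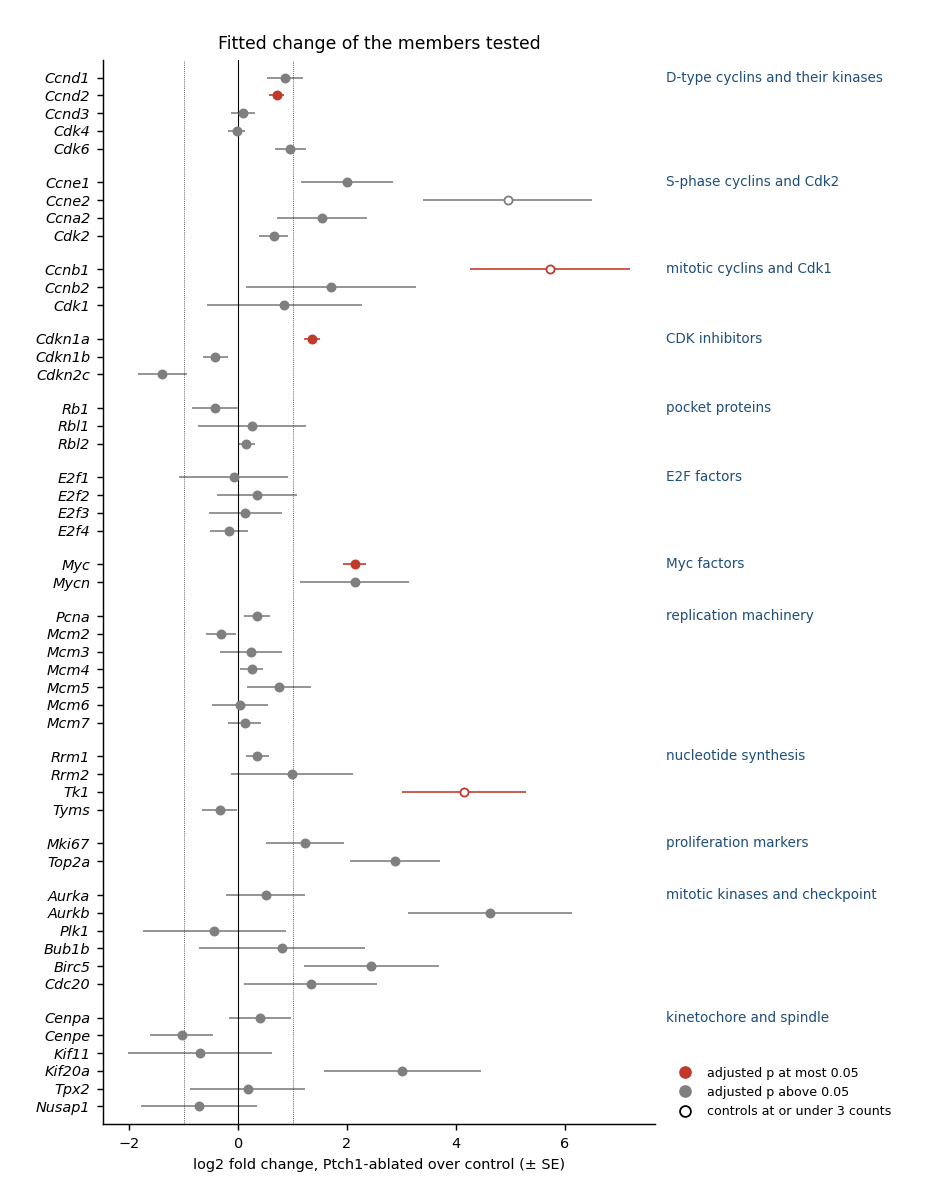
Fitted log2 fold change of Ptch1-ablated over control for the 49 genes tested, with SE bars, ordered by role. Red marks an adjusted p of at most 0.05, open circles mark genes with no more than 3 counts in each control, and dotted lines mark a fold of 2, with 37 points right of 0.

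Cdkn1a, which encodes the CDK inhibitor p21, was the most abundant member on average over the 6 libraries. In controls alone its mean of 171 TPM lay under those of Ccnd3 (263 TPM) and Cdk4 (195 TPM). The 3 controls held 3368, 2951 and 2826 counts of Cdkn1a (Entrez 12575), and the ablated libraries 9552, 8431 and 8605. The lowest ablated library thus held more than 2 times the highest control. In CPM it rose from 144.5 ± 18 to 370.6 ± 32.2 (SD, n = 3 each). The fitted log2 fold change was 1.36 ± 0.15 (SE), with an edgeR adjusted p of 8.1e-05. Neither of the other inhibitors tested rose. Cdkn1b, for p27, had 595, 459 and 704 counts in controls and 459, 516 and 500 in ablated libraries, which in CPM lay below every control (27.4 ± 3.34 against 20.5 ± 1.23, SD, n = 3 each). Its log2 fold change was -0.42 ± 0.23 (SE, edgeR adjusted p = 0.356). Cdkn2c, for the Cdk4 and Cdk6 inhibitor p18, had 283, 232 and 255 counts in controls and 114, 159 and 56 in ablated libraries. The groups did not overlap, and the log2 fold change was -1.39 ± 0.45 (SE, edgeR adjusted p = 0.0842), which passed 0.05 with DESeq2 (0.0396) and limma on log2(TPM + 1) (0.0373). Cdkn2b, for p15, had 0, 11 and 0 counts in controls and 22, 0 and 4 in ablated libraries, too few to test. Summed over the 4 inhibitors, which Cdkn1a dominates, the level was 166 to 195 CPM in controls and 369 to 433 CPM in ablated libraries.

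Myc encodes a transcription factor that promotes growth and entry into the cycle. Myc (Entrez 17869) had 389, 295 and 489 counts in controls and 1947, 2081 and 1737 in ablated libraries, so that the lowest ablated library held over 3 times the highest control. In CPM the rise was from 18.3 ± 2.97 to 80.4 ± 9.50 (SD, n = 3 each), or 2.14 ± 0.21 on the log2 scale (SE), with an edgeR adjusted p of 4.2e-05. Cdkn1a and Myc kept their calls under each of the 16 alternatives computed for them, with adjusted p of at most 0.000896 and 0.000733. Mycn, a Hedgehog target in other tissues, was much scarcer, at 2, 21 and 39 counts in controls and 70, 53 and 190 in ablated libraries. The groups did not overlap, and ablated replicate 3 held most of the ablated counts, but the edgeR adjusted p was 0.254.

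**Figure D3:**
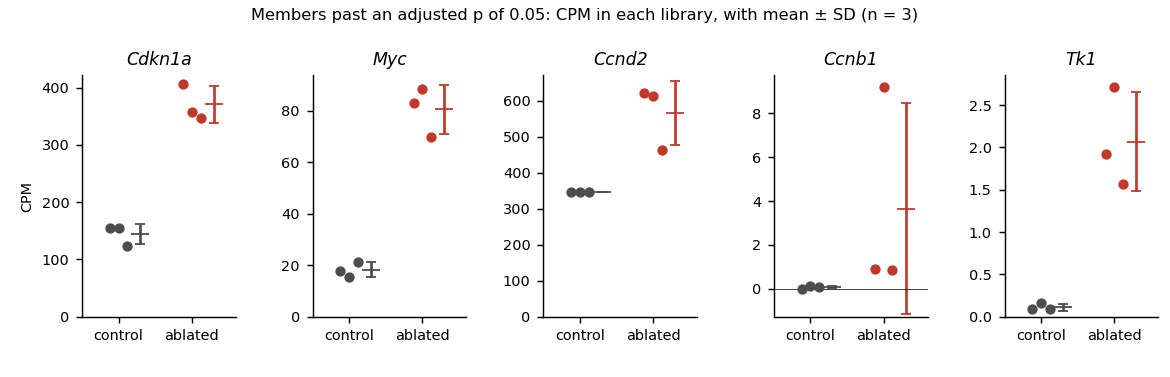
CPM of the 5 genes with an adjusted p of at most 0.05 in each library, as points, beside the mean and SD of each group (n = 3), each gene on its own linear axis. For Cdkn1a, Myc, Ccnd2 and Tk1 the ablated libraries lie together above the controls, while for Ccnb1 a single ablated library (9.22 CPM) sets the mean.

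The D-type cyclins and their kinases, which phosphorylate the Rb proteins in G1, were the best measured of the cyclins. Ccnd2 (Entrez 12444), for cyclin D2, had 7538, 6594 and 7917 counts in controls and 14561, 14457 and 11481 in ablated libraries. The controls were almost level at 346.4 ± 0.49 CPM, and the ablated libraries lay above them at 565.7 ± 89.7 CPM (SD, n = 3 each). Ccnd2 rose by less than 2-fold, by 0.71 ± 0.14 on the log2 scale (SE, edgeR adjusted p = 0.0070), and without control replicate 1 and ablated replicate 2 the adjusted p was 0.0530. Ccnd1, for cyclin D1, had 182, 297 and 290 counts in controls and 544, 635 and 407 in ablated libraries. Its groups did not overlap (edgeR adjusted p = 0.145), and its level of 7.02 ± 2.12 TPM in controls and 14.9 ± 4.28 TPM in ablated libraries (SD, n = 3 each) was far below that of Ccnd2. Cdk6, a catalytic partner of the D-type cyclins, had 326, 344 and 408 counts in controls and 676, 1086 and 595 in ablated libraries, again without overlap. The log2 fold change of Cdk6 was 0.96 ± 0.28 (SE, edgeR adjusted p = 0.0610), and it passed 0.05 with DESeq2 (0.0193), with scaling by library totals only (0.0273) and with a mean count of at least 50 (0.0479).

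Ccnd3 and Cdk4 gave no such separation. Ccnd3, for cyclin D3, had 6072, 4530 and 3609 counts in controls and 6832, 4347 and 5956 in ablated libraries. Its log2 fold change was 0.085 ± 0.22 (SE), at an edgeR adjusted p of 0.889. Cdk4, the other partner kinase, had 2658, 2226 and 2414 counts in controls and 2825, 2257 and 3025 in ablated libraries, with a log2 value of -0.028 ± 0.16 (SE) at an edgeR adjusted p of 0.956. The direction of both flipped between settings, that of Cdk4 also under scaling by library totals and on the TPM scale. Of the 5 genes in this role, 0 were called by edgeR, DESeq2 called 0 and scaling by library totals called Cdk6. At an unadjusted edgeR p under 0.05, 3 of the 5 were higher (Ccnd1, Ccnd2 and Cdk6), against 10.8% of all tested genes. The summed level of the 5 genes was 641 to 770 CPM in controls and 864 to 1084 CPM in ablated libraries.

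The cyclins that start and carry S phase were scarce. All 4 genes of the role were higher in every ablated library than in any control, against 14.1% of all tested genes. Ccne1, for cyclin E1, had 45, 26 and 6 counts in controls and 65, 145 and 144 in ablated libraries (log2 fold change 1.99 ± 0.84, SE, edgeR adjusted p = 0.201). Ccne2, for cyclin E2, had 2, 0 and 0 counts in controls and 34, 23 and 24 in ablated libraries. Over the group this was 81 against 2 counts, a ratio of 35.9 with an exact 95% counting interval of 9.61 to 301, and the edgeR adjusted p was 0.0762. Ccna2, for cyclin A2, had 24, 24 and 19 counts against 44, 85 and 95, or 1.54 ± 0.82 on the log2 scale (SE, edgeR adjusted p = 0.328). Cdk2, the kinase that cyclins E and A activate, was better covered, at 359, 575 and 628 counts in controls and 785, 1059 and 946 in ablated libraries. Its log2 fold change was 0.65 ± 0.27 (SE, edgeR adjusted p = 0.181). None of the 4 passed an adjusted p of 0.05 by edgeR. At an unadjusted edgeR p under 0.05, 3 of the 4 were higher (Ccne1, Ccne2 and Cdk2), against 10.8% of all tested genes. Ccne2 passed an adjusted p of 0.05 with DESeq2 (0.0485), and Ccne1 (0.0265) and Cdk2 (0.0498) with limma on log2(TPM + 1).

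Cyclin B1, encoded by Ccnb1, activates Cdk1 to start mitosis. Ccnb1 (Entrez 268697) had 0, 2 and 2 counts in controls and 21, 217 and 21 in ablated libraries. All ablated libraries were above the controls, but ablated replicate 2 held most of the reads. The total was 259 against 4 counts, a ratio of 57.3 (exact 95% counting interval 22.1 to 212), with an edgeR adjusted p of 0.0317. The interval pools the reads of each group and leaves out the spread between libraries. Without ablated replicate 2 the fitted log2 fold change went from 5.73 to 3.67 and the adjusted p to 0.294, and without control replicate 1, 2 or 3 it was 0.0618, 0.0839 and 0.0801. Ccnb2, for cyclin B2, had 0, 0 and 38 counts in controls and 58, 23 and 51 in ablated libraries. Cdk1 itself had 0, 17 and 21 counts in controls and 48, 4 and 26 in ablated libraries, so that for both genes the groups overlapped.

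The Rb and E2F families, through which the G1 kinases act, showed no separation between the groups. Of 3 Rb family and 4 E2F genes tested, 0 were called by edgeR or by DESeq2, 0 had an unadjusted p under 0.05, and in none did the groups separate. The median log2 fold change was 0.15 for the Rb family and 0.025 for the E2F factors. Rbl2, for p130, the Rb family protein of resting cells, was the most abundant, with 1698 to 2123 counts in controls and 2144 to 2464 in ablated libraries, which overlapped in CPM. Rb1 had 182 to 252 and 99 to 277 counts, and Rbl1, for p107, 1 to 129 and 86 to 147. E2f4, a repressive E2F, had 242 to 411 counts in controls and 188 to 391 in ablated libraries, while E2f1, E2f2 and E2f3 did not exceed 141 counts in any library.

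The replication genes gave little difference. Of the 6 Mcm genes, subunits of the helicase that opens DNA at origins, and Pcna, 0 of 7 were called by edgeR or by DESeq2, and 0 had an unadjusted p under 0.05. The median log2 fold change was 0.23. Pcna had 722, 480 and 565 counts in controls and 693, 755 and 1097 in ablated libraries (log2 fold change 0.35 ± 0.24, SE, edgeR adjusted p = 0.479). The groups overlapped. Mcm4 was the only one of the 7 whose groups did not overlap, at 576, 582 and 753 counts against 883, 804 and 868, yet its log2 fold change was 0.25 ± 0.21 (SE, edgeR adjusted p = 0.579). In ablated replicate 2, which had the highest level of 9 of the 18 mitotic and marker genes, 5 of the 6 Mcm genes were at their lowest among the ablated libraries. For Mcm3 that library had 91 counts against 653 and 542, and for Mcm6 150 against 603 and 465.

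Among the enzymes of nucleotide synthesis, Tk1, for the thymidine kinase of S phase, was near absent in controls. Tk1 (Entrez 21877) had 2, 3 and 2 counts in controls and 45, 64 and 39 in ablated libraries. The ablated libraries were alike, at 2.07 ± 0.59 CPM (SD, n = 3), and all above the controls. Over the group this was 148 against 7 counts, a ratio of 18.7 (exact 95% counting interval 8.86 to 47.4), with an edgeR adjusted p of 0.0430. The call was lost when any 1 library was left out, with adjusted p of 0.0978 to 0.149, and the count per library was at most 64. Rrm1, the large subunit of ribonucleotide reductase, had 542 to 794 counts in controls and 803 to 1114 in ablated libraries, which overlapped in CPM. Its small subunit Rrm2, the one that cycles with S phase, had 3, 36 and 12 counts in controls and 21, 50 and 51 in ablated libraries. Tyms, for thymidylate synthase, had 348 to 613 counts in controls and 313 to 534 in ablated libraries.

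Proliferation markers and mitotic genes were low and uneven. Mki67, for the Ki-67 antigen, had 73, 30 and 22 counts in controls and 78, 134 and 121 in ablated libraries, and in CPM control replicate 1 lay level with ablated replicate 1, at 3.35 and 3.32. Top2a, for the topoisomerase that untangles chromosomes before they separate, had 17, 26 and 6 counts in controls and 70, 228 and 129 in ablated libraries. Its groups did not overlap, and its log2 fold change was 2.89 ± 0.83 (SE, edgeR adjusted p = 0.0527). That p lay at the threshold, and 6 of the 16 alternatives gave one under 0.05, among them DESeq2 (0.00354), but none of the 6 that left out 1 library did. Aurkb, for the kinase of the chromosomal passenger complex, had 0, 0 and 4 counts in controls and 27, 42 and 48 in ablated libraries (log2 fold change 4.63 ± 1.5, SE, edgeR adjusted p = 0.0864). It passed with DESeq2 (0.0279) and both limma fits.

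The other mitotic kinases and checkpoint genes scattered among libraries of both groups. Birc5, for survivin, a partner of Aurora B, had 198 counts in ablated replicate 2 against 11 and 19 in the other ablated libraries and 4, 9 and 25 in controls. Bub1, a checkpoint kinase that was too scarce to test, had its counts in control replicate 3 (29) and ablated replicate 2 (61), with 1 count elsewhere. Bub1b, a checkpoint protein, had 79, 0 and 1 counts in controls and 14, 88 and 52 in ablated libraries. Plk1, a kinase of mitotic entry, had 68, 5 and 4 counts against 15, 5 and 44, and Cdc20, which activates the anaphase-promoting complex, 0, 20 and 49 against 66, 78 and 49. Aurka, a spindle pole kinase, had 34 to 57 counts in controls and 55 to 87 in ablated libraries.

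Of the kinetochore and spindle genes, Cenpa, for the centromeric histone, had 54, 72 and 91 counts in controls and 104, 96 and 124 in ablated libraries. Its groups did not overlap, but the log2 fold change was 0.40 ± 0.57 (SE, edgeR adjusted p = 0.776). Kif20a, a motor of cytokinesis, had 0, 4 and 7 counts against 11, 76 and 15 (log2 fold change 3.02 ± 1.44, SE, edgeR adjusted p = 0.268). Without ablated replicate 2 that value was 1.61, and 1.03 without control replicate 1 as well. The kinesins Cenpe (63 to 249 counts in controls, 62 to 89 in ablated libraries) and Kif11 (7 to 56 and 1 to 67) and the spindle proteins Tpx2 (19 to 68 and 12 to 104) and Nusap1 (8 to 54 and 13 to 26) overlapped. Together, 1 of the 17 mitotic and marker genes tested was called (Ccnb1), 3 had an unadjusted p under 0.05 (Ccnb1, Top2a and Aurkb), and the groups separated with ablated libraries higher in 5. The call share of 5.88% was close to the 5.49% of all tested genes. The share higher at that unadjusted p was 17.6% against 10.8%, and the share separated was 29.4% against 14.1%. Their summed level was 29.2, 19.2 and 27.9 CPM in control replicates 1 to 3 and 32.4, 62.0 and 38.8 CPM in ablated replicates 1 to 3. In this sum all ablated libraries were above the controls, by little in replicate 1 and most in replicate 2. The 6 kinetochore and spindle genes alone overlapped, at 15.5, 11.7 and 17.3 CPM in controls and 12.6, 12.5 and 13.4 CPM in ablated libraries. Of the 17 genes tested, 13 had a log2 fold change above 0. It was below 0 for 4, Cenpe (-1.04), Nusap1 (-0.72), Kif11 (-0.70) and Plk1 (-0.44), none at an unadjusted edgeR p under 0.05.

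**Figure D4:**
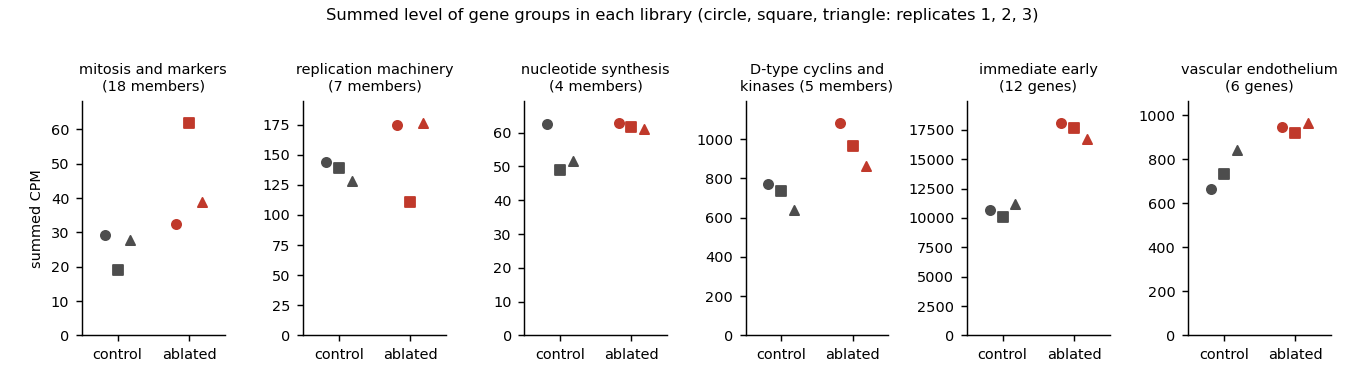
Summed CPM of gene groups in each library, each on its own linear axis from 0, with controls in grey and Ptch1-ablated libraries in red. The mitotic and marker genes peak in ablated replicate 2 (62.0 CPM), where the replication machinery is lowest (111 CPM), while immediate early genes are level within each group.

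Other genes of the cycle were read from lists that hold no member. Of 31 other S-phase genes tested, 0 were called by edgeR or by DESeq2 and 0 had an unadjusted p under 0.05, with a median log2 fold change of 0.052 and 17 above 0. Of 32 other mitotic genes, 0 were called by edgeR, against 3 by DESeq2. At an unadjusted p under 0.05, 2 of the 32 were higher, Cks2 and Ndc80, a smaller share than the 10.8% of all tested genes. The groups separated with ablated libraries higher in 5 of the 32 (15.6%, against 14.1% of all tested genes), the change was above 0 in 20, and the median was 0.43. Cks2, an adaptor subunit of CDKs, had 690 counts in ablated replicate 2 against 107 and 143 in the other ablated libraries and 21, 57 and 63 in controls. The kinetochore gene Ndc80 had 0, 0 and 3 counts in controls and 16, 74 and 32 in ablated libraries, so that the same library was the highest. Of 30 other regulators of G1 and quiescence, 0 were called by edgeR or by DESeq2, and the median was 0.074. The antiproliferative gene Btg2 passed without the fold minimum, with 6635 to 8422 counts in controls and 11741 to 13348 in ablated libraries (log2 fold change 0.61 ± 0.12, SE, edgeR adjusted p = 0.0089).

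Cdkn1a is a p53 target, and Myc is among the genes that respond within minutes to mitogens and to tissue handling, so these classes were read beside them. Of 11 p53 target genes tested, 1 was called, Plk2, a kinase also induced by growth signals, which had 2973, 3336 and 4293 counts in controls and 10018, 8742 and 10895 in ablated libraries. Its log2 fold change was 1.31 ± 0.15 (SE, edgeR adjusted p = 0.00016). The share called was 9.09% of the p53 list against 5.49% of all tested genes. The median of the list was 0.28, with 7 of 11 above 0 (63.6%, against 50.4% of all tested genes). All 12 immediate early genes tested had a change above 0, against 50.4% of all tested genes, and the median was 0.65. Of them 9 (75%) passed an edgeR adjusted p of 0.05 and 3 (25%) were called, against 8.48% and 5.49% of all tested genes. Jun rose from 317 ± 42.3 to 865 ± 18 CPM, Fosb from 489 ± 59.8 to 1107 ± 103 CPM, and Nr4a1 from 354 ± 53.8 to 788 ± 51.8 CPM (SD, n = 3 each). In log2 these were 1.45, 1.18 and 1.15, with edgeR adjusted p of 2.2e-05, 0.00011 and 0.00018. The summed level of the 12 genes was 10124.8 to 11222.4 CPM in controls and 16708.6 to 18118.6 CPM in ablated libraries. What part this has in the rises of Cdkn1a and Myc was not tested.

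Markers of other cells also differed between the groups. Rose and fell here mean an edgeR adjusted p of at most 0.05. Of all tested genes, 4.68% passed it as higher and 3.8% as lower. Of 6 vascular endothelial markers, 4 rose (Pecam1, Cdh5, Emcn and Vwf), with a summed level of 666 to 842 CPM in controls and 919 to 966 CPM in ablated libraries. Kdr, of the same list, lay below every control in CPM (log2 fold change -0.40 ± 0.14, SE), at an edgeR adjusted p of 0.112. Of 6 mural cell markers 3 rose (Rgs5, Kcnj8 and Notch3), from 349 to 354 up to 628 to 636 CPM in sum. Among the leukocyte markers Cd74 and Itgam rose, while Cd68, Lyz2 and Cd3e had log2 fold changes of -0.13, -0.28 and -0.87 that did not pass. The list had sums of 2535 to 2698 and 3312 to 3361 CPM, and the panleukocyte gene Ptprc had 603 to 1308 and 932 to 1297 counts. Of 8 corneal epithelial markers tested 4 fell (Krt5, Krt14, Krt15 and Krt4) and Krt12 rose, with sums of 78.9 to 90.3 and 6.80 to 13.2 CPM. Of 5 corneal endothelial markers Car3 rose and 3 had changes below 0 that did not pass. Their sums were 820 to 939 CPM in controls and 594 to 903 CPM in ablated libraries. Of 3 melanocyte markers 0 passed by edgeR. Of 9 keratocyte markers tested, several of them named by the study, 7 fell, and their sums were 140057 to 160920 CPM in controls and 83041 to 94709 CPM in ablated libraries. No marker of these lists was at 0 in every library, and Krt12 was at 0 in all controls. The part of such cells in the levels of the cell cycle genes was not tested, and in bulk RNA fewer cells of a type and less RNA per cell cannot be told apart.

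Over all 51 members the highest CPM fell in an ablated library for 38 (74.5%, against 49.2% of all tested genes), 12, 17 and 9 of them in ablated replicates 1 to 3. In control replicates 1 to 3, 8, 5 and 2 members had 0 counts, against 0, 1 and 1 in the ablated ones. Detection also differed over all genes. Of 17606 genes, 14331, 15029 and 15231 had a count in control replicates 1 to 3, against 15645, 15554 and 15560 in the ablated ones. Of the 17 members under 100 counts in every library, 1 (Tk1) passed the adjusted p. Counts lay more than 0.001 from a whole number in at least 1 library for 17 members, Ccnd1, Ccnd3, Cdk6, Ccne2, Kif20a, Tk1 and Ccnb1 among them, where reads were shared with similar sequences, so their values carry that uncertainty.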

How the data were processed

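RNA of sorted corneal keratocytes was measured in 6 libraries, whose titles gave the group and replicate number. Nothing in the labels ties a library to an animal, and the study's methods call the replicates biological. Per the labels and methods, the authors used Bowtie2 (2.2.5) for alignment and RSEM (1.2.12) for quantification, and the submitters' processing notes name the build mm9. The annotation and strand setting were not given in the sources used here. Library kits differ between the labels (TruSeq) and the study's methods (ribosomal RNA depletion and a BGISEQ platform). The deposited values are expected counts from RSEM, not normalized, of which 18.6% were not whole (tolerance 0.001), and TPM, which the authors scaled by length to a common sum. The deposited FPKM, which the authors scaled by length and library, were not used. The authors' group averages were not used either.

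Expected counts were rounded, genes were kept by filterByExpr, TMM scaled the libraries, and edgeR's quasi-likelihood test (two-sided, no covariates) compared the groups. Benjamini-Hochberg adjustment ran over all 13888 genes. Called means an adjusted p no higher than 0.05 with a fold of 2 or more, the thresholds of the study's methods. TPM served to compare levels between genes and CPM between groups. Counts in the text are rounded expected counts. Where the controls had at most 3 counts in every library, the ratio of summed counts per library total is given. Its exact 95% interval covers counting error only, pooling reads and leaving out the spread between libraries. Such genes, and also Aurkb and Kif20a, passed the low-count filter only through the ablated libraries. With 3 against 3 libraries the smallest two-sided p of an exact permutation test is 0.1, so none was used. The fit was tested on simulated counts, where 200 of 13888 genes were moved by 2 on the log2 scale. It recovered 174 of them (87%), with 12 false calls. The moved genes were drawn from the better expressed genes only, so this does not bear on the scarce members. Motifs were searched on both strands of RefSeq windows.

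The members and lists were chosen with earlier results of these data known. By rule, genes past the adjusted p, with groups that do not overlap, or among the 5 highest in TPM or 5 lowest in CPM were given in every library, and of other lists the called genes, except for some marker genes not reported here. Cks2, Ndc80, Btg2, Kdr, Cd68, Lyz2 and Cd3e and single libraries of other members were named after their values were seen. Alternatives were RLE and upper quartile scaling, library totals only, DESeq2, a mean count of 50 or more, no filter on low counts, limma on log2(TPM + 1) and log2(TPM + 0.1), the replicate block, each library left out, and adjusted p of 0.01 and 0.10. Leaving out control replicate 1 and ablated replicate 2 together was chosen after seeing the data. Versions were DESeq2 1.42.0, limma 3.58.1 and edgeR 4.0.16 in R 4.3.3, with Python 3.11.15.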

Additional observations from a re-analysis of the deposited data

How the results depend on the processing

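The number of members called was 4 with RLE and upper quartile scaling, 6 with library totals only, 8 with DESeq2, 7 with limma on log2(TPM + 1), 6 with limma on log2(TPM + 0.1), 3 with a mean count of 50 or more, 4 with no low-count filter, 2 with the replicate block, 2 at an adjusted p of 0.01 and 8 at 0.10, and 2 to 3 with 1 library left out (2 without control replicate 1 and ablated replicate 2). Cdkn1a and Myc were called in each of these fits. Without the fold minimum 10 members passed with DESeq2, 9 with limma on log2(TPM + 1), 3 with the replicate block, 3 to 4 with 1 library left out and 2 without the 2 libraries. Ccnb1 lost its call with limma on log2(TPM + 1) (adjusted p 0.0783), with the block (0.0726), without any 1 control (0.0618 to 0.0839) and without ablated replicate 2. Tk1 lost it with no low-count filter (0.0774), with the block (0.129) and with any 1 library left out. The median log2 fold change of the members was 0.71 with limma on log2(TPM + 0.1), a scale on which the median of all genes was 0.22 (0.17 with library totals only).

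The other S-phase genes had 0 calls with 1 library left out except 1 without control replicate 3, and a median of 0.36 with limma on log2(TPM + 0.1), and the other G1 regulators a median of 0.33 there. Of the other mitotic genes 1 was called with library totals only, with a mean count of 50 or more, with no filter or without ablated replicate 1 (0 without any other single library), 2 at an adjusted p of 0.10, and 3 with DESeq2 or either limma fit, and their median was 0.72 without control replicate 2. Either limma fit called 2 p53 targets and 6 immediate early genes, and the block 2 p53 targets. The log2 fold change of Ccnd3 was -0.12 without control replicate 3 and -0.080 without ablated replicate 1, and up to 0.42 with both libraries left out. That of Cdk4 ranged from -0.091 to 0.12 with libraries left out and was 0.14 with library totals only, 0.17 with either limma fit, 0.016 without control replicate 1, 0.082 without ablated replicate 2 and 0.12 without both. The cause of these moves was not tested.

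Deviations of same-numbered libraries correlated at -0.046, -0.049 and 0.039 across genes, so no pairing by number was seen. So few libraries cannot exclude one, and the fit with the replicate block is given as an alternative only. A count of 0 allows up to 0.121 to 0.158 CPM by counting error alone, and replicates also spread beyond counting, with a chi-square per degree of freedom of at least 35.1.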
